A study of Bos taurus with 6 samples.

Results

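The genes described here are the collagens, the laminin chains and the other large proteins of basement membranes and of the surrounding matrix, read in testis tissue of calves and bulls. They were chosen by name alone, as the genes whose symbol is that of a collagen chain, a laminin alpha, beta or gamma chain, a nidogen, fibronectin (FN1), elastin (ELN), a fibrillin, perlecan (HSPG2) or agrin (AGRN). The rule found 60 of the 47249 genes in the table, with 260 of the 108527 transcripts, and no measured value was used to choose them. Of the 60, 59 code for matrix proteins, and COL4A3BP, a transporter of ceramide, only carries a collagen's name. The collagens COL6A4, COL19A1, COL21A1, COL22A1, COL24A1 and COL25A1 and the laminin chain LAMB4 were not analysed here.

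The study compared untreated Wandong cattle (Bos taurus) of 2 ages, 3 immature calves of about 3 months and 3 mature bulls of about 3 years. The testis was freed of its outer sheaths, a slice from the middle was frozen, and total RNA was depleted of ribosomal RNA and sequenced in a strand-specific way, with 1 library per animal. Levels are FPKM, read fragments scaled to the length of a transcript and to the size of the library, so genes of different length can be set side by side. The tissue is bulk and FPKM are relative to the library. Fewer cells of a type, less RNA per cell and more RNA from other cells cannot be told apart in any difference below.

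A basement membrane is a thin sheet of matrix under epithelia and around muscle and vessels. Laminin trimers of an alpha, a beta and a gamma chain and a network of collagen IV form its layers, and nidogen and perlecan link them. In the testis it surrounds each seminiferous tubule, where Sertoli cells and spermatogonia rest on its inner face and peritubular myoid cells lie on the outside, and both Sertoli and myoid cells deposit it. Fibrillar collagens and collagen VI fill the space between tubules.

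The library labelled calf 3 stood apart from the other 5 before any comparison was made. Its 10 brain markers summed to 13950.3 FPKM, against 13.1 to 13.2 FPKM in calf 1 and calf 2 and at most 21.5 FPKM in a bull, and its 8 Leydig cell markers summed to 0.502 FPKM, against at least 1116 FPKM elsewhere. The defining Sertoli genes WT1, GATA4 and FSHR were listed at 0 in it. The tissue label was therefore borne out by its markers in 5 of the 6 libraries, and each result is given with all libraries and without calf 3. Of the 60 genes, 42 were lower in calf 3 than in both other calves and 15 were higher. Calf 1 and calf 2 lay within 2-fold of each other for 42 of the 52 genes tested.

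The matrix genes as a set were far lower in bull testis than in the 2 calves with testis markers. The 59 genes summed to 2062 FPKM in calf 1 and 1646 FPKM in calf 2, to 275 FPKM in calf 3, and to 309, 363 and 379.7 FPKM in bull 1, 2 and 3. The bulls thus held 5.29-fold less than the mean of calf 1 and calf 2, while calf 3 lay below each of the bulls. As a share of all FPKM of a library, calf 3 at 0.0469% fell within the range of the bulls, 0.0398 to 0.0519%, and calf 1 and calf 2 were at 0.193% and 0.15%. The fold in summed FPKM was 12.3 for collagen IV, 9.57 for the multiplexins COL15A1 and COL18A1, 5.68 for the fibrillar collagens, 5.48 for collagen VI, and 4.73, 5.28 and 3.85 for the laminin alpha, beta and gamma chains. These folds and that of 5.29 are not scaled to library totals. The totals over all genes were 1066180, 1098720 and 587066 FPKM in the calves and 776839, 770191 and 732130 FPKM in the bulls. As a share of the library the nidogens overlapped, at 0.00503% in calf 2 and 0.00512% in bull 3. Only the short-chain and anchoring collagens had a higher sum in each bull than in each calf, at 6.12, 5.69 and 4.19 FPKM against 1.8, 2.14 and 1.76 FPKM.

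**Figure D1:**
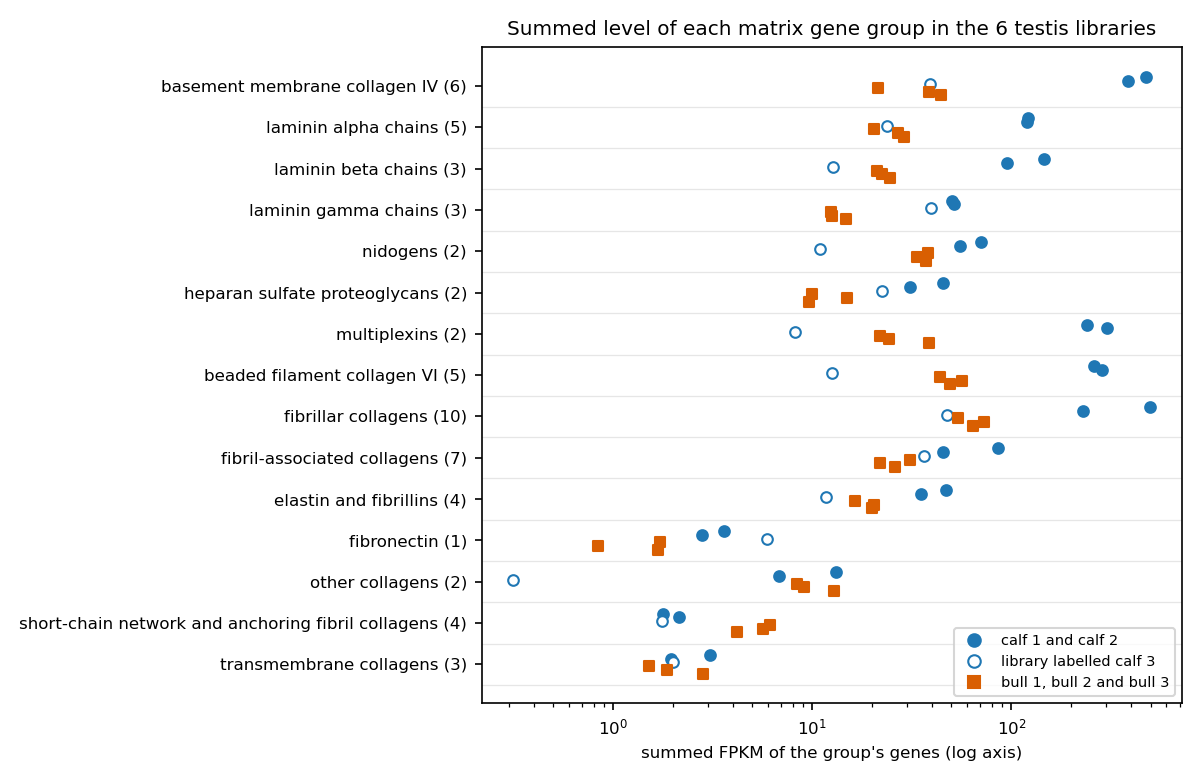
Summed FPKM of each group of matrix genes (log axis) in the 6 libraries, with the number of genes in brackets. Calf 1 and calf 2 (filled circles) lie right of the bulls (squares) in 12 of the 15 groups, and calf 3 (open circles) lies among or left of the bulls for collagen IV, collagen VI and the fibrillar collagens.

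Bull minus calf differences were tested on log2(FPKM + 1) with limma over all genes with at least 1 FPKM in at least 3 of the 6 libraries. A gene was called when its Benjamini-Hochberg adjusted p lay below 0.05 and its mean log2 level differed by 1 or more. Of the 60 genes, 52 passed the filter and 8 did not. With all 6 libraries 11 of the 52 (21.2%) were called lower in bulls and 6 (11.5%) higher, where the share over all 18115 genes tested was 9.61% lower and 35.7% higher. Without calf 3 the calls were 30 lower (57.7%) and 6 higher, against 13.6% and 37.9% of all genes. The median log2 fold change was -1.03 for the 52 genes and 0.43 for all genes, and -1.66 and 0.43 without calf 3. Quantile normalization moved the median of all genes to -0.26 and that of the 52 genes to -1.64, with 21 called lower and 2 higher, where 25.1% and 21.1% of all genes were called. The 16 genes called in the same direction with and without calf 3 were LAMA3, COL26A1, COL2A1, COL10A1, COL11A2 and COL9A3, which were higher in bulls, and COL9A2, COL4A1, AGRN, COL5A1, FBN3, COL27A1, LAMA2, LAMC1, LAMB2 and LAMC3, which were lower. Leaving out calf 3 added 20 lower calls and took away that of FN1. The 15 genes called in neither case were FBN2, ELN, COL14A1, COL9A1, COL12A1, COL5A3, COL11A1, HSPG2, LAMA4, LAMA5, LAMB3, NID2, COL4A3BP, COL8A2 and COL13A1, with differences of -1.10 to 0.99996 without calf 3. Where groups are compared by rank alone, 16 of the 52 genes had every bull below every calf and 9 every bull above, against 21.3% and 46.1% of all genes, and without calf 3 these counts were 34 and 11, against 30.9% and 53.5%. Each fold change below understates the change of a gene near 1 FPKM, because 1 was added to every value.

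Of the 17 genes called with all libraries, 11 kept their call when any single library was left out, and they were LAMA3, COL26A1, COL2A1, COL10A1, COL11A2, COL9A2, AGRN, COL27A1, LAMA2, LAMC1 and LAMB2. The other 6 lost it without at least 1 library. COL4A1 and LAMC3 lost it without each library except calf 3, with an adjusted p by limma of up to 0.0896 and 0.105. FN1 lost it without each library except calf 2 (up to 0.0813), and FBN3 without calf 1, calf 2, bull 2 or bull 3 (up to 0.068). COL5A1 lost it without any of the bulls (up to 0.0612), and COL9A3 without calf 2, bull 1 or bull 3 (up to 0.123). The direction stayed the same for all 6. The filter was set on all 6 libraries in each case. COL10A1 and COL2A1 passed it only through the bulls, and COL9A2, COL5A1, COL27A1 and FBN3 only through the calves. These genes could thus be called in 1 direction only.

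**Figure D2:**
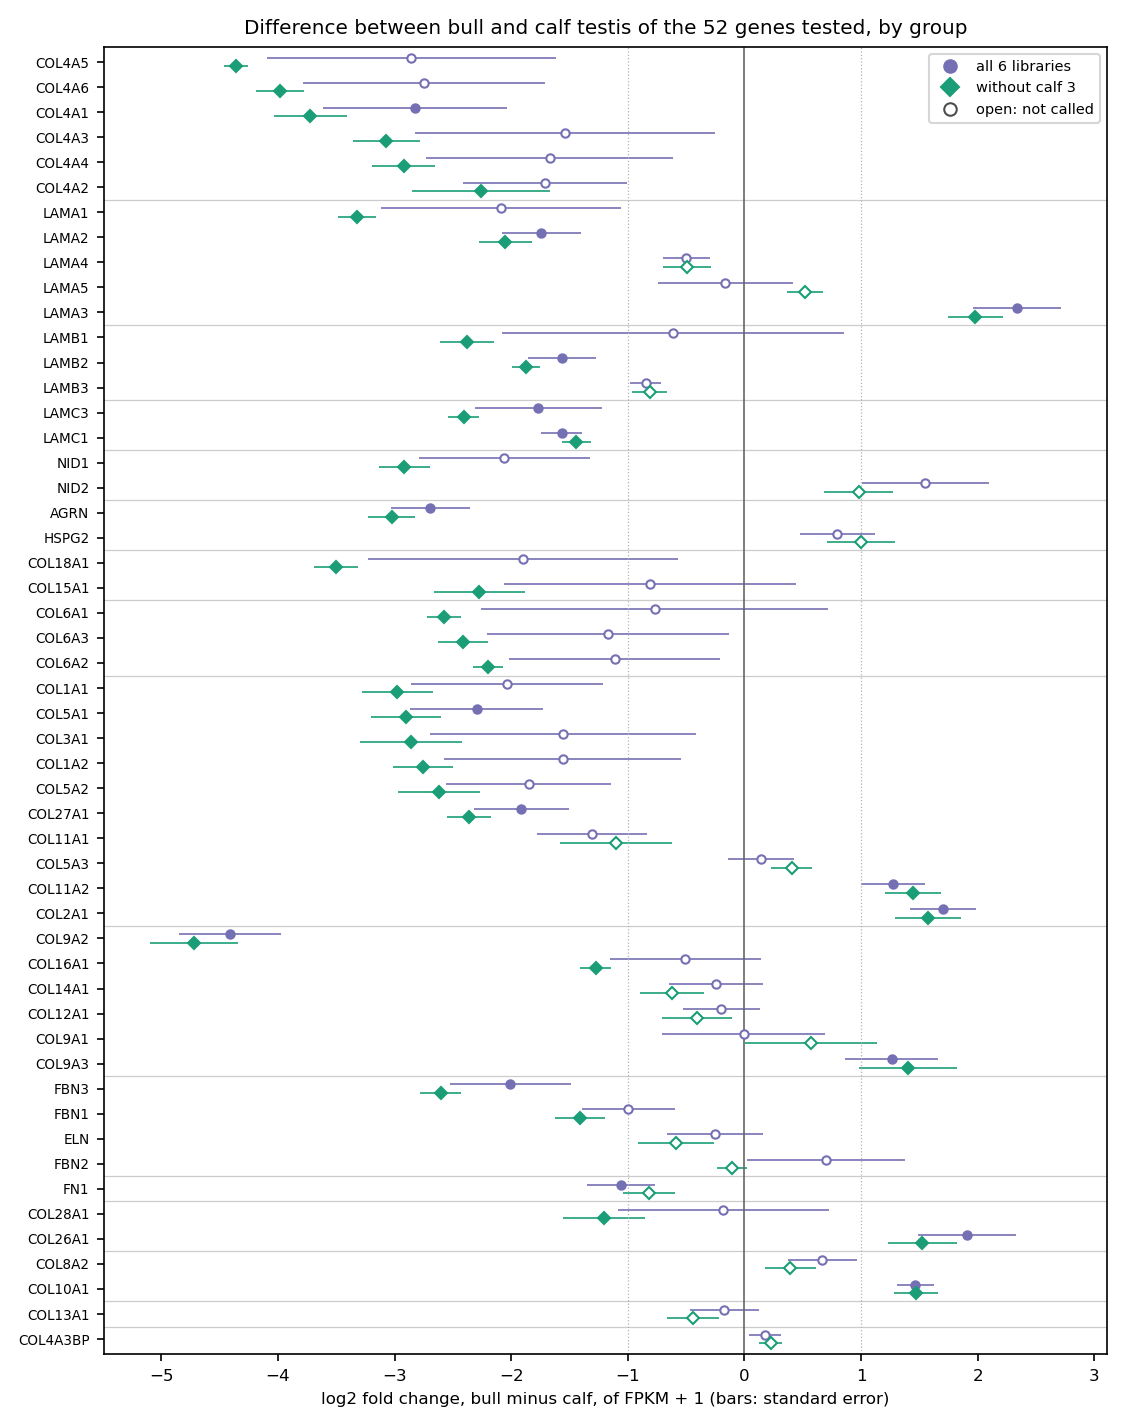
Log2 fold change (bull minus calf) with its standard error for the 52 genes tested, ordered by group, with all 6 libraries (circles) and without calf 3 (diamonds). Filled symbols passed the test. The standard errors of COL4A5, COL6A1 and LAMB1 shrink from 1.24, 1.49 and 1.47 to 0.10, 0.14 and 0.23 once calf 3 is left out, and LAMA3 stands alone at the right among the laminins.

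Collagen IV, the network former of every basement membrane, has 6 chains that lie as 3 pairs of neighbouring genes. All 6 passed the filter. One, COL4A1, was called lower with all libraries, and all 6 were called lower without calf 3, with log2 fold changes from -4.36 to -2.26. COL4A5 (chromosome X:57288214-57391723), a chain mutated in hereditary nephritis, was the most abundant. It stood at 165, 147 and 5.86 FPKM in calf 1, 2 and 3 and at 6.55, 6.55 and 6.79 FPKM in bull 1, 2 and 3. The bulls were nearly level with each other and 23.5-fold below the mean of calf 1 and calf 2, and calf 3 lay just under the bulls. The log2 fold change was -2.86 ± 1.24 (SE) with an adjusted p of 0.0972 by limma, and -4.36 ± 0.10 with an adjusted p of 8.60e-07 without calf 3. COL4A1 (chromosome 12:84863917-84995777), one of the chains found in nearly all basement membranes, measured 119, 97.5 and 15.9 FPKM in the calves and 4.96, 6.45 and 11.6 FPKM in the bulls. Here the groups did not overlap, and the difference was -2.83 ± 0.79 (adjusted p = 0.0241), or -3.72 ± 0.31 without calf 3 (adjusted p = 0.000105). COL4A3, another chain of the kidney's filtration membrane, had 76.3, 51.6 and 1.63 FPKM in the calves and 4.51, 8.98 and 6.93 FPKM in the bulls. It fell by 3.07 on the log2 scale without calf 3 (adjusted p = 0.000158), though its Ensembl transcripts alone were not called there (-0.43, adjusted p = 0.337), and its difference was -1.54 with all libraries (adjusted p = 0.348).

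COL4A2, COL4A4 and COL4A6 complete the group. COL4A6 read 36.1, 24.2 and 1.32 FPKM in the calves and 0.854, 1.14 and 0.81 FPKM in the bulls, which was 32.2-fold lower in bulls than in calf 1 and calf 2. COL4A2 was 45.9, 40.3 and 13.1 FPKM in the calves and 2.85, 11.7 and 15 FPKM in the bulls, so that bull 1 lay well below bull 2 and bull 3 and calf 3 fell inside the range of the bulls. COL4A4 gave 32.7, 24.7 and 1.18 FPKM and 1.79, 3.68 and 3.51 FPKM. The fold changes of COL4A2, COL4A4 and COL4A6 without calf 3 were -2.26, -2.92 and -3.99, with adjusted p of 0.013, 0.000146 and 1.39e-05. With all 6 libraries they were -1.71, -1.67 and -2.75, with adjusted p of 0.0828, 0.226 and 0.0654. COL4A3 and COL4A4 overlap over 178650 bases of chromosome 2, and at most 12.7% of their mean in the calves or the bulls came from Ensembl transcripts, so the split between them is uncertain. COL4A6 also overlaps ATG4A over 336639 bases, and ATG4A itself went from 2.14, 2.32 and 2.61 FPKM in the calves to 0.619, 0.395 and 0.375 FPKM in the bulls.

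The balance of the pairs within collagen IV differed between libraries, also between those of the same age. COL4A5 and COL4A6 made up 42.4% and 44.4% of the summed collagen IV in calf 1 and calf 2, 18.4% in calf 3, and 34.4, 19.98 and 17% in the bulls. The shares of COL4A1 and COL4A2 were 34.6, 35.8 and 74.4% in the calves and 36.3, 47.1 and 59.5% in the bulls. Calf 1 and calf 2 were thus above all bulls in the first share and below them in the second, with bull 1 nearest to these calves in both. Calf 3 lay within the range of the bulls in the first share and above all bulls in the second. COL4A3 and COL4A4, which rest mostly on unnamed transcripts, held 22.9, 19.8 and 7.23% in the calves and 29.3, 32.9 and 23.4% in the bulls. The ratio of COL4A1 to COL4A2 was 2.59, 2.42 and 1.21 in the calves and 1.74, 0.553 and 0.773 in the bulls, so it spread by over 3-fold among the bulls alone. An exact two-sided permutation test of 3 against 3 libraries cannot go below p = 0.1, and no such test was run on the shares.

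Among the laminins, the alpha chain that dominated in calf 1 and calf 2 was accompanied in bulls by another one. LAMA1, the alpha chain of the first laminin described and a chain of early basement membranes, stood at 99.4, 101 and 6.75 FPKM in the calves and 7.38, 9.44 and 10.9 FPKM in the bulls. It was 10.9-fold lower in bulls than in calf 1 and calf 2, and calf 3 lay just under the bulls. Its log2 fold change was -2.09 ± 1.03 (adjusted p = 0.133), and -3.32 ± 0.16 without calf 3 (adjusted p = 1.13e-05). LAMA3 (chromosome 24:32711020-32946065), the alpha chain of epithelial anchoring laminins and, in rodents, a chain at the contact of Sertoli cells with elongated spermatids, went the other way. It was 1.24, 2.31 and 0.287 FPKM in the calves and 7.86, 10.1 and 11.6 FPKM in the bulls, with every bull above every calf. The rise was 2.34 ± 0.38 (adjusted p = 0.00261) and 1.98 ± 0.24 without calf 3 (adjusted p = 0.000444), and it stayed called under quantile normalization at 1.64. All of its value came from the Ensembl transcript LAMA3-201.

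As a share of the 5 alpha chains, counted over Ensembl transcripts, LAMA1 held 81.8% and 84.3% in calf 1 and calf 2, 29.6% in calf 3, just under LAMA2 at 31.5%, and 37.4, 36.3 and 38.9% in the bulls. LAMA3 held 1.02% and 1.93% in calf 1 and calf 2, 1.26% in calf 3 and 39.9, 38.7 and 41.7% in the bulls. In each bull the LAMA1 and LAMA3 shares lay within 3 points of each other, whereas LAMA1 was over 40-fold above LAMA3 in calf 1 and calf 2. LAMA2, the alpha chain of muscle, nerve and peritubular membranes, fell from 15.8, 13.3 and 7.2 FPKM in the calves to 2.06, 3.92 and 2.49 FPKM in the bulls, without overlap (log2 fold change -1.74 ± 0.34, adjusted p = 0.00588; without calf 3 -2.05 ± 0.23, adjusted p = 0.000343). LAMA4, a chain of vessel walls, was 4.4, 2.62 and 3.47 FPKM and 1.88, 2.32 and 2.24 FPKM, and its difference of -0.50 (adjusted p = 0.0819) was not called. LAMA5, a chain of mature epithelial membranes, had 0.87, 0.576 and 6.12 FPKM and 1.31, 1.36 and 1.74 FPKM. Calf 3 held the highest LAMA5 value, and the difference changed from -0.16 to 0.52 when it was left out, with no call in either case.

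Most beta and gamma chains were lower in bulls. LAMB1, the beta chain partner of LAMA1 in laminin 111, was 125, 74.3 and 1.46 FPKM in the calves and 16, 17.5 and 19.9 FPKM in the bulls. Calf 3 lay below every bull, and the log2 fold change was -0.61 ± 1.47 with it (adjusted p = 0.745) and -2.38 ± 0.23 without it (adjusted p = 0.000175). LAMB2, the beta chain of muscle and kidney membranes, was 18.9, 19.1 and 9.48 FPKM and 4.86, 4.25 and 4.28 FPKM, lower in every bull (-1.56 ± 0.29, adjusted p = 0.00497; without calf 3 -1.87 ± 0.12, adjusted p = 3.66e-05). LAMB3, the beta chain that pairs with LAMA3 in skin, did not share the rise of LAMA3: it stood at 1.72, 1.55 and 1.83 FPKM in the calves and 0.411, 0.733 and 0.381 FPKM in the bulls, below every calf, and the difference of -0.85 ± 0.13 (adjusted p = 0.00244) was under the fold required. LAMC1, the gamma chain of most laminins, measured 24.9, 26.7 and 33.6 FPKM and 8.04, 8.78 and 9.81 FPKM, with calf 3 the highest of all libraries (-1.57 ± 0.17, adjusted p = 0.00055, and -1.44 ± 0.12, adjusted p = 0.000114, without calf 3). LAMC3, a gamma chain that rodents also carry at the Sertoli cell contact with spermatids, was 25.2, 24.8 and 5.88 FPKM and 3.93, 3.47 and 4.35 FPKM and was called lower (-1.77 ± 0.55, adjusted p = 0.0341; without calf 3 -2.41 ± 0.13, adjusted p = 1.74e-05).

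**Figure D3:**
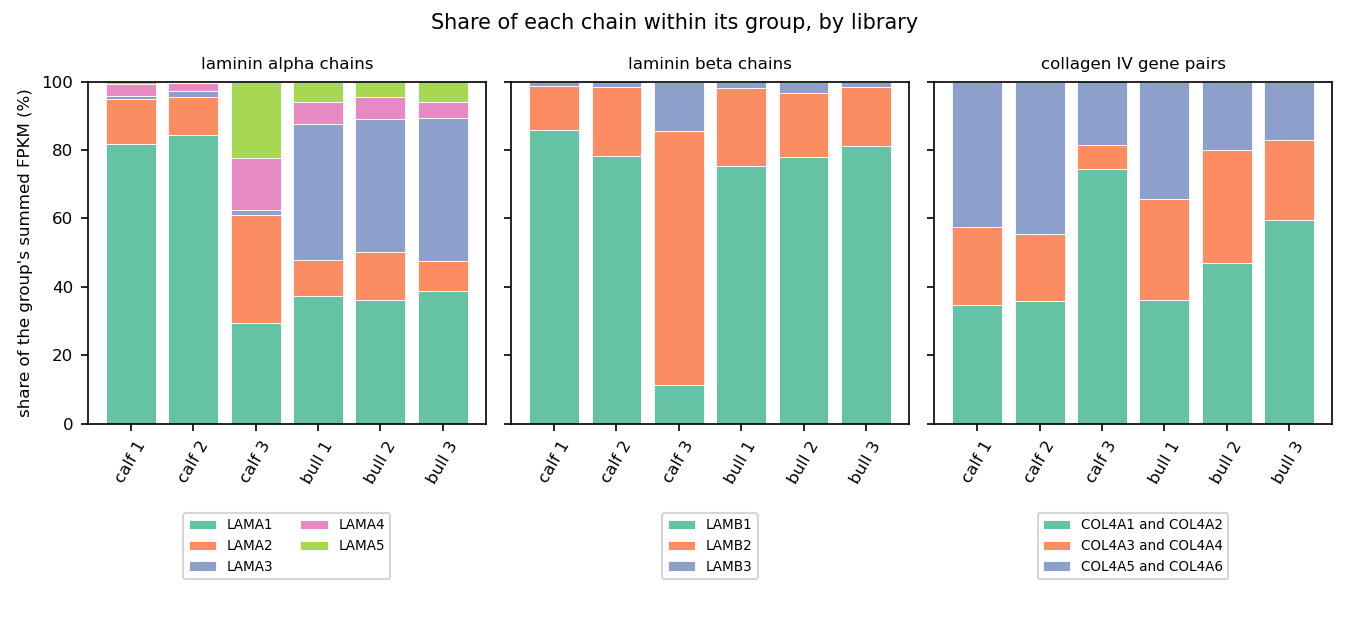
Share (%) of each laminin chain within the summed FPKM of the alpha and of the beta chains (Ensembl transcripts), and of each collagen IV gene pair within collagen IV (all transcripts), in each library. In the first panel LAMA3 grows from at most 1.93% in the calves to at least 38.7% in the bulls, while the beta chain shares of calf 1 and calf 2 resemble those of the bulls. Calf 3 differs from all others in the beta panel, with LAMB2 at 74.2%.

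The linking molecules gave opposite gene values. NID1, nidogen-1, which joins laminin to collagen IV, was 48.4, 45 and 7.07 FPKM in the calves and 4.44, 4.47 and 7.49 FPKM in the bulls, with calf 3 among the bulls, at a log2 fold change of -2.06 ± 0.73 (adjusted p = 0.0547), and of -2.91 ± 0.22 without calf 3 (adjusted p = 6.71e-05). NID2, nidogen-2, was 22.2, 10.2 and 3.94 FPKM in the calves and 33.7, 29 and 30.0 FPKM in the bulls, higher in every bull, though it was not called (1.55 ± 0.55, adjusted p = 0.0525; without calf 3 0.98 ± 0.30, adjusted p = 0.0228). The bulls' value came mostly from transcripts other than the Ensembl one. NID2-201, the Ensembl transcript, was 21.8, 10.1 and 3.76 FPKM in the calves and 2.54, 3.85 and 5.32 FPKM in the bulls. NID2-OT1, named as overlapping, spans 1285 bases at the low-coordinate end of the gene (chromosome 10:44846568-44847852) and went from 0.0409, 0 and 0.0481 FPKM to 21.6, 13.7 and 10.9 FPKM. NID2-AS1, named as antisense, went from 0.175, 0.0489 and 0.116 FPKM to 8.52, 10.7 and 13 FPKM. Both rose (3.94 and 3.38, adjusted p = 9.85e-05 and 6.86e-05 by limma over transcripts). They passed the filter only through the bulls, so only a higher call was open to them. NID2-201 fell by 1.74 on the log2 scale without calf 3 (adjusted p = 0.0113 by limma). With calf 3 its difference was -1.16 (adjusted p = 0.149).

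Perlecan behaved alike. HSPG2, the heparan sulfate proteoglycan of basement membranes, was 4.59, 2.58 and 5.82 FPKM in the calves and 6.46, 11.1 and 6.93 FPKM in the bulls, higher in every bull but not called (0.80 ± 0.32, adjusted p = 0.0808). Without calf 3 its difference of 0.99996 was just under the fold required. Its Ensembl transcript HSPG2-201 was 4.57, 2.44 and 5.69 FPKM in the calves and 0.679, 0.646 and 0.863 FPKM in the bulls and was called lower (-1.55, adjusted p = 0.00477; without calf 3 -1.34, adjusted p = 0.0049). The transcripts HSPG2-AS4 and HSPG2-AS5 were listed at 0 in all calves and reached 2.57, 2.78 and 1.11 FPKM and 1.03, 2.25 and 2.83 FPKM in the bulls. AGRN, agrin, the other heparan sulfate proteoglycan, came from Ensembl transcripts alone and was 40.9, 28.3 and 16.6 FPKM in the calves and 3.5, 3.77 and 2.71 FPKM in the bulls. It was called lower with all libraries (-2.69 ± 0.34, adjusted p = 0.000898) and without calf 3 (-3.02 ± 0.20, adjusted p = 3.96e-05).

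The multiplexins, collagens with heparan sulfate or chondroitin sulfate chains that sit in or beside basement membranes, were among the most abundant. COL18A1, the source of endostatin, was 194, 259 and 7.04 FPKM in the calves and 16.6, 17.4 and 23.2 FPKM in the bulls, and COL15A1 was 46.8, 42.1 and 1.16 FPKM and 5.39, 6.88 and 15.4 FPKM. Both were several-fold lower in all bulls than in calf 1 and calf 2, and calf 3 lay below all bulls. Without calf 3 they were called lower, by 3.50 and 2.27 on the log2 scale (adjusted p = 1.70e-05 and 0.00218), while with it the adjusted p was 0.268 and 0.612. COL18A1-201 itself was 10.7, 8.04 and 13.1 FPKM in the bulls, the rest of the bulls' COL18A1 being largely transcripts named as antisense, such as COL18A1-AS4 at 4.65, 4.63 and 5.96 FPKM.

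Collagen VI, which forms beaded filaments around cells of connective tissue, needs the alpha-1, alpha-2 and alpha-3 chains. COL6A1 was 142, 165 and 2.61 FPKM in the calves and 21.5, 28.3 and 25.3 FPKM in the bulls. COL6A2 was 91.4, 102 and 9.16 FPKM and 18.5, 23.3 and 19.2 FPKM, and COL6A3 24.9, 15.8 and 0.586 FPKM and 2.66, 2.8 and 3.36 FPKM. All 3 chains were highest in calf 1 and calf 2 and lowest in calf 3, which lay under every bull. None was called with all libraries, where the adjusted p ran from 0.336 to 0.685, and all 3 were called lower without calf 3 (-2.57, -2.20 and -2.41, adjusted p = 1.95e-05, 2.57e-05 and 0.00013). COL6A6, a rarer chain below the filter, was the reverse, at 0.368, 0.137 and 0.0183 FPKM in the calves and 0.966, 1.38 and 1.2 FPKM in the bulls.

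The fibrillar collagens, the tensile fibres of the interstitium, split into a larger set that was lower and a smaller one that was higher in bulls. COL3A1, the collagen of reticular fibres, was 222, 78.5 and 7.88 FPKM in the calves and 13.7, 22 and 17.4 FPKM in the bulls. The collagen I chains COL1A1 and COL1A2 were 60.8, 30.0 and 5.22 FPKM and 153, 86 and 8.5 FPKM in the calves and 3.64, 4.86 and 5.34 FPKM and 15.1, 19.1 and 14.5 FPKM in the bulls. For all 3 genes calf 1 lay above calf 2, and both lay far above the bulls. Without calf 3 the log2 fold changes were -2.86, -2.98 and -2.76 (adjusted p = 0.0013, 0.000238 and 0.000157), and with all libraries the adjusted p was 0.288, 0.0796 and 0.239. COL5A1, which sets the diameter of collagen I fibrils, was 15.2, 7.19 and 2.25 FPKM in the calves and 0.385, 0.556 and 0.693 FPKM in the bulls and was called either way (-2.30 ± 0.57, adjusted p = 0.0156; without calf 3 -2.90 ± 0.30, adjusted p = 0.000238). Its partner COL5A2 was 24.8, 10.5 and 2.48 FPKM and 1.46, 2.28 and 1.73 FPKM and was called without calf 3 (-2.62, adjusted p = 0.000717). COL27A1, a fibrillar collagen best known from cartilage, fell from 8.87, 5.97 and 2.26 FPKM to 0.577, 0.692 and 0.579 FPKM (-1.91 ± 0.41, adjusted p = 0.00854, and -2.36 ± 0.19, adjusted p = 8.02e-05, without calf 3).

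The fibrillar collagens called higher were COL2A1 and COL11A2, both known from cartilage. COL2A1 passed the filter only through the bulls, so only a higher call was open to it. COL2A1 was 0.508, 0.883 and 0.289 FPKM in the calves and 2.78, 3.72 and 6.07 FPKM in the bulls (1.70 ± 0.28, adjusted p = 0.00289, and 1.57 ± 0.29, adjusted p = 0.00281, without calf 3). In the bulls 45.1% of its mean was in Ensembl transcripts, and on COL2A1-201 alone the difference was 0.89 (adjusted p = 0.014), under the fold required. COL11A2 was 4.38, 2.82 and 5.42 FPKM in the calves and 8.82, 14 and 11.7 FPKM in the bulls (1.28 ± 0.27, adjusted p = 0.00852, and 1.44 ± 0.24, adjusted p = 0.00183, without calf 3), and its transcript COL11A2-201 was called higher as well (1.25, adjusted p = 0.00993). The sum of all its Ensembl transcripts was just under the fold required with all libraries (0.996, adjusted p = 0.0269) and was called without calf 3 (1.17, adjusted p = 0.00531). Under quantile normalization COL2A1 was at 0.86 and COL11A2 at 0.77 (adjusted p = 0.0314 and 0.0443), and neither was called. COL11A1 and COL5A3 looked different at the level of the gene and of the Ensembl transcript. COL11A1 was 4.12, 3.17 and 6.07 FPKM in the calves and 2.83, 1.25 and 0.154 FPKM in the bulls (-1.31, adjusted p = 0.0558), and COL11A1-201 fell from 4.09, 3.1 and 4.67 FPKM to 0.102, 0.138 and 0.154 FPKM (-2.12, adjusted p = 0.000162). COL5A3 was 4.08, 3.32 and 7.08 FPKM and 5.0, 4.48 and 6.27 FPKM (0.14, adjusted p = 0.692), while COL5A3-201 fell from 4.05, 3.3 and 6.38 FPKM to 0.921, 0.876 and 0.326 FPKM (-1.69, adjusted p = 0.00324).

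Of the collagens that bind to the surface of fibrils, COL9A2 had the largest decrease among the 52 genes tested. It was 44.9, 17.2 and 14.1 FPKM in the calves and 0.0656, 0.0472 and 0.177 FPKM in the bulls, so each bull was under 2% of each calf (-4.41 ± 0.44, adjusted p = 0.000331; without calf 3 -4.72 ± 0.38, adjusted p = 8.52e-05). Its partner in collagen IX, COL9A3, rose from 2.44, 0.506 and 2.05 FPKM to 6.45, 3.16 and 6.03 FPKM (1.26 ± 0.40, adjusted p = 0.0379, and 1.40 ± 0.42, adjusted p = 0.0218, without calf 3), while COL9A1, the third chain, was 2.5, 2.67 and 10.9 FPKM and 11.2, 2.55 and 2.47 FPKM, with bull 1 and calf 3 far above the other 4 libraries and no call. For these 3 genes at most 23.9% of the mean of the calves or of the bulls came from Ensembl transcripts. That share was 2.11% for COL9A2 in the calves and 2.09% for COL9A3 in the bulls. The Ensembl transcripts of COL9A2 were 0.5, 0.857 and 0.25 FPKM in the calves, so its decrease rests mostly on unnamed assembled transcripts. COL9A3 also overlaps TCFL5 over 17281 bases, and TCFL5, a germ cell transcription factor gene, went from 5.6, 4.65 and 15.2 FPKM to 80.5, 91.6 and 75.9 FPKM; the part of this overlap in the COL9A3 values was not tested, and under quantile normalization COL9A3 was not called (0.61, adjusted p = 0.237). COL16A1 was 14.7, 12.3 and 1.9 FPKM and 5.01, 4.95 and 4.88 FPKM and was called lower without calf 3 (-1.28, adjusted p = 0.000235). COL14A1, which organises fibrils in skin and tendon, was 16.9, 8.91 and 5.11 FPKM and 6.79, 7.16 and 9.3 FPKM, and COL12A1 was 4.11, 3.75 and 2.2 FPKM and 1.52, 4.07 and 3.03 FPKM. Neither was called on the gene value (-0.24 and -0.20, adjusted p = 0.637 and 0.639). On Ensembl transcripts without calf 3 both were called lower (-1.17 and -1.34, adjusted p = 0.0104 and 0.000257 by limma). With all libraries COL14A1 was not called on them (-0.87, adjusted p = 0.102). COL20A1, another collagen of this group, stayed under 0.4 FPKM in every library.

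Among the remaining collagens, COL26A1 and COL10A1 were called higher. COL10A1 reached 1 FPKM only in the bulls, so it passed the filter through them alone and only a higher call was open to it. COL26A1, a collagen first described in testis and ovary, was 2.94, 1.02 and 0.277 FPKM in the calves and 6.28, 7.03 and 8.1 FPKM in the bulls (1.91 ± 0.42, adjusted p = 0.00971; without calf 3 1.52 ± 0.30, adjusted p = 0.00379). COL10A1, the collagen of hypertrophic cartilage, was 0.0583, 0.194 and 0.144 FPKM and 2.42, 2.51 and 1.53 FPKM (1.46 ± 0.16, adjusted p = 0.000504, and 1.47 ± 0.19, adjusted p = 0.000579, without calf 3). It lies within NT5DC1 for 90762 of its 91062 bases, its Ensembl transcripts held 0.596% of its mean in the bulls, and NT5DC1 was 6.98, 9.5 and 2.02 FPKM and 6.15, 5.81 and 4.14 FPKM. The Ensembl transcripts of COL26A1 were 1.59, 0.607 and 0.0205 FPKM in the calves and 0.418, 0.782 and 0.334 FPKM in the bulls, so that 7.16% of its bull mean was Ensembl transcript and the rest AS, OT and mostly unnamed ones. Under quantile normalization COL10A1 was at 0.36 (adjusted p = 0.205), while COL26A1 stayed called at 1.21. COL28A1, a collagen of nerve sheaths, was 10.2, 5.8 and 0.0408 FPKM and 2.14, 2.04 and 4.73 FPKM and was called lower without calf 3 (-1.20, adjusted p = 0.021). COL8A2, of the corneal basement membrane, was 0.961, 1.32 and 0.203 FPKM and 2.06, 2.29 and 1.18 FPKM, and COL13A1, a membrane-spanning collagen, was 2.79, 1.57 and 0.776 FPKM and 1.16, 1.07 and 1.7 FPKM, neither with a call. The 8 genes below the filter, COL6A5, COL6A6, COL20A1, COL7A1, COL8A1, COL17A1 and COL23A1 among them, did not exceed 2.03 FPKM in any library. COL7A1, the anchoring fibril collagen of skin, was 0.409, 0.536 and 0.806 FPKM in the calves and 1.58, 0.83 and 1.42 FPKM in the bulls.

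The microfibril and elastic fibre genes gave differences of unlike size, and none was called higher. With all libraries only FBN2 had a positive difference (0.70, adjusted p = 0.415 by limma), and without calf 3 all were negative. FBN1, the main fibrillin of connective tissue, was 22.3, 16.2 and 7.48 FPKM in the calves and 5.12, 7.1 and 7.69 FPKM in the bulls (-0.99 ± 0.40, adjusted p = 0.0786), and it was called lower without calf 3 (-1.41 ± 0.21, adjusted p = 0.0012). FBN2, the fibrillin of embryonic tissue, was 10.5, 8.89 and 0.999 FPKM and 8.45, 9.15 and 9.1 FPKM. Apart from calf 3 its 5 libraries spanned only 8.45 to 10.5 FPKM, and without calf 3 its log2 fold change was -0.11 ± 0.13 (adjusted p = 0.474). FBN3, the third fibrillin, was 6.98, 6.54 and 1.24 FPKM and 0.529, 0.22 and 0.112 FPKM, lower in every bull (-2.01 ± 0.52, adjusted p = 0.0177; without calf 3 -2.60 ± 0.18, adjusted p = 4.39e-05). ELN, elastin, was 7.47, 3.41 and 2.04 FPKM and 2.28, 4.04 and 3.08 FPKM, and FN1, fibronectin, was 3.62, 2.8 and 5.92 FPKM and 1.72, 0.847 and 1.68 FPKM. ELN overlapped between the groups and was not called (-0.25, adjusted p = 0.631). FN1 was lower in every bull and called with all libraries (-1.06 ± 0.29, adjusted p = 0.0227), and without calf 3, its highest library, the difference was -0.82 ± 0.22. On Ensembl transcripts FN1 was called lower with all libraries (-1.49, adjusted p = 0.00582 by limma) and without calf 3 (-1.25, adjusted p = 0.00106). COL4A3BP, the ceramide transporter, was 20.9, 21.7 and 23.7 FPKM and 24.4, 24.4 and 26.4 FPKM and was not called (0.18, adjusted p = 0.308). Its transcript COL4A3BP-201 was 10.01, 10.3 and 22.8 FPKM in the calves and 2.03, 3.62 and 2.11 FPKM in the bulls and was called lower (adjusted p = 0.00485), and COL4A3BP-202 was 10.8, 11.4 and 0.924 FPKM and 22.4, 20.8 and 24.3 FPKM.

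The table of transcripts shows what the gene values are made of. A gene's value equalled the sum of its transcripts for all 60 genes, and besides 135 Ensembl transcripts these included 53 transcripts with the suffix AS, 8 with the suffix OT and 64 assembled ones without a gene-style name. By naming convention AS stands for antisense and OT for overlapping, but the table gives no strand. Over the 59 matrix genes the AS transcripts summed to 2.54, 2.22 and 1.61 FPKM in the calves and 38.8, 43.6 and 47.3 FPKM in the bulls. That was at most 0.585% of the matrix sum in a calf and 12 to 12.6% in the bulls, while the Ensembl share was 90.4, 92.7 and 87.6% in the calves and 67, 72.5 and 71.9% in the bulls. Every bull exceeded every calf for 29 of the 53 AS transcripts and the reverse held for none of them, against 48.9% and 4.05% of all 6223 AS transcripts in the table. Of the 29, 21 were listed at 0 in all calves.

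Of the 260 transcripts 70 passed the filter. With all libraries 12 were called higher and 15 lower, where 34.8% and 9.37% of the 23212 transcripts tested were called. Without calf 3 the counts were 12 higher and 43 lower, against 36.1% and 13.1% over all. The 50 Ensembl transcripts tested gave 2 higher calls, LAMA3-201 and COL11A2-201, and 14 lower calls, where 25.6% and 11.2% of all Ensembl transcripts tested were called. Without calf 3 they gave 2 and 39, against 27.4% and 16.1%. The 8 AS transcripts tested were all called higher, where 83.6% of the 525 AS transcripts tested over all genes were called higher too and 0.952% lower. They were COL11A2-AS5, COL18A1-AS4, COL26A1-AS2, FBN1-AS4, HSPG2-AS5, HSPG2-AS4, LAMC1-AS1 and NID2-AS1. In each calf these 8 lay below 1 FPKM, so they passed the filter only through the bulls. Only a higher call was thus open to them. How many of the 525 passed in the same way was not counted.

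In 7 of the 52 genes tested (13.5%) the mean share of the Ensembl transcripts was over 80% in calf 1 and calf 2 and under 50% in the bulls, and this was so in 421 of all 18115 genes tested (2.32%). The 7 genes were COL2A1, COL5A3, COL11A1, COL12A1, COL13A1, HSPG2 and NID2. The limits were set after their values were seen, so the shares of genes meeting them do not measure an excess. The 18115 also include genes without an Ensembl transcript, which could not meet the limits. COL11A1 met them only on the mean, with 3.61, 11.1 and 100% in bull 1, 2 and 3. When each gene was summed over its Ensembl transcripts only, 45 genes passed the filter, with 15 called lower and 1, LAMA3, higher (11.7% and 25.6% of all genes). Without calf 3 these counts were 34 lower and 2 higher, LAMA3 and COL11A2 (17.4% and 27.8%). On this sum NID2 had a log2 fold change of -1.16 in place of 1.55, HSPG2 -1.55 in place of 0.80, COL5A3 -1.69 in place of 0.14 and COL12A1 -1.11 in place of -0.20. The genes HSPG2, COL5A3, COL11A1, COL12A1 and FBN1 were called lower on Ensembl transcripts and not on all transcripts. Leaving out only the AS and OT transcripts gave 13 genes called lower and 5 higher (10.1% and 35.2% of all genes), and 33 and 6 without calf 3 (14.2% and 37%). The Ensembl sum could not be used for COL4A4, COL9A1, COL9A2, COL9A3, COL10A1, COL13A1 and COL26A1, whose Ensembl transcripts did not pass the filter.

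**Figure D4:**
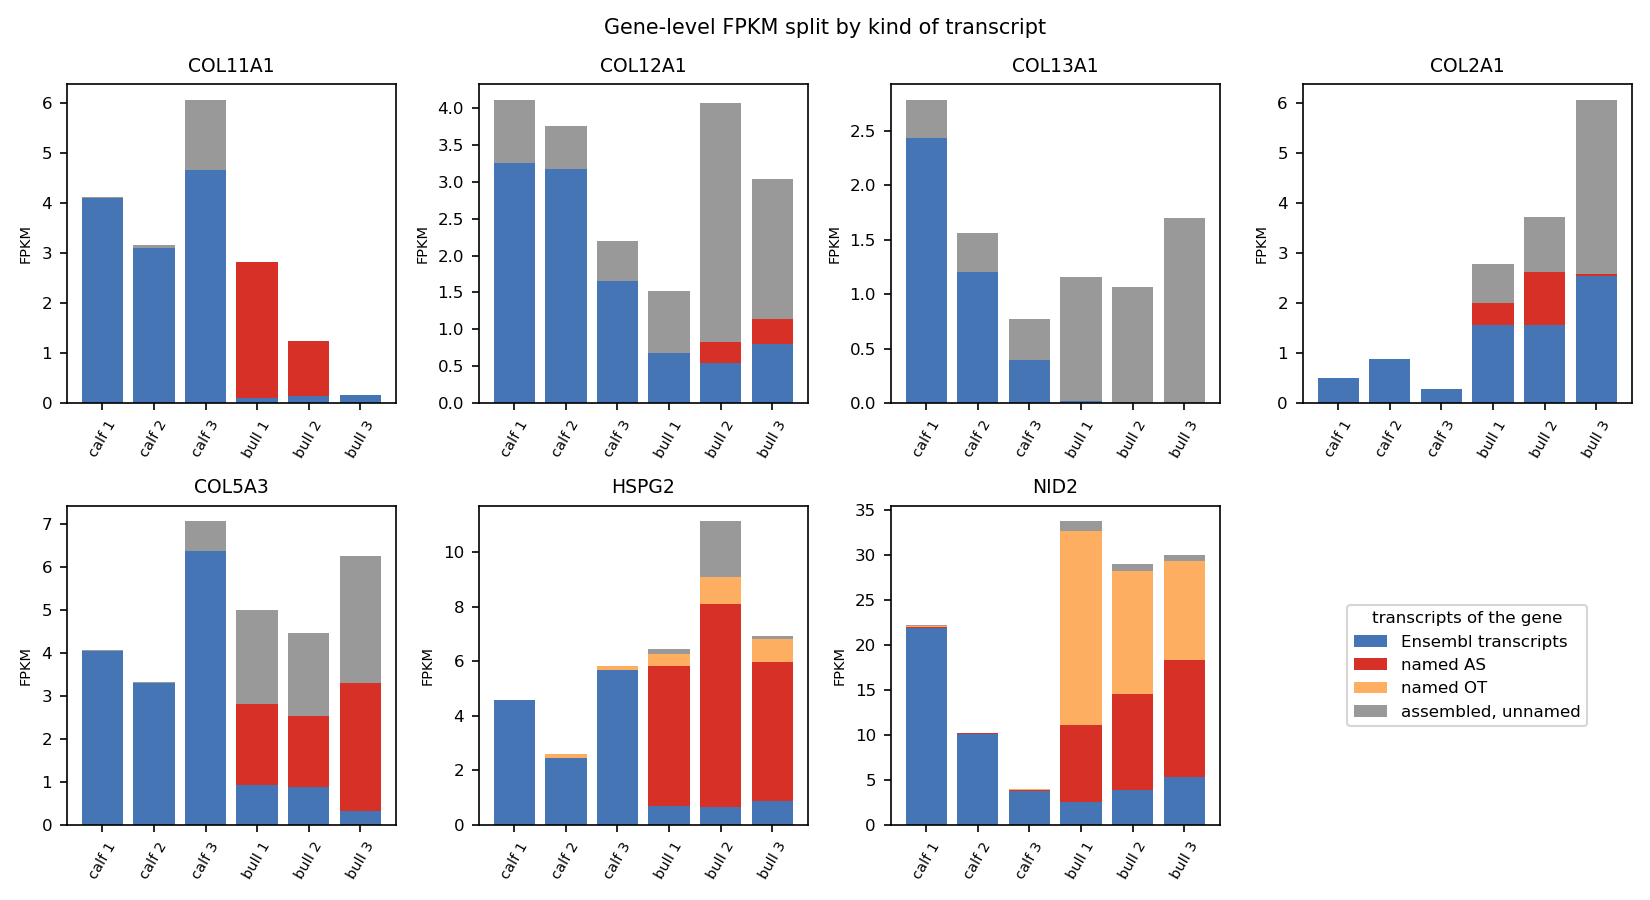
FPKM of the 7 genes in each library, split into Ensembl transcripts, transcripts named AS or OT, and unnamed assembled transcripts. The Ensembl part (blue) fills most of the calf bars and, averaged over the bulls, under 50% of theirs, as in NID2 at 98.5, 99 and 95.4% in the calves and 7.54, 13.3 and 17.7% in the bulls.

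**Figure D5:**
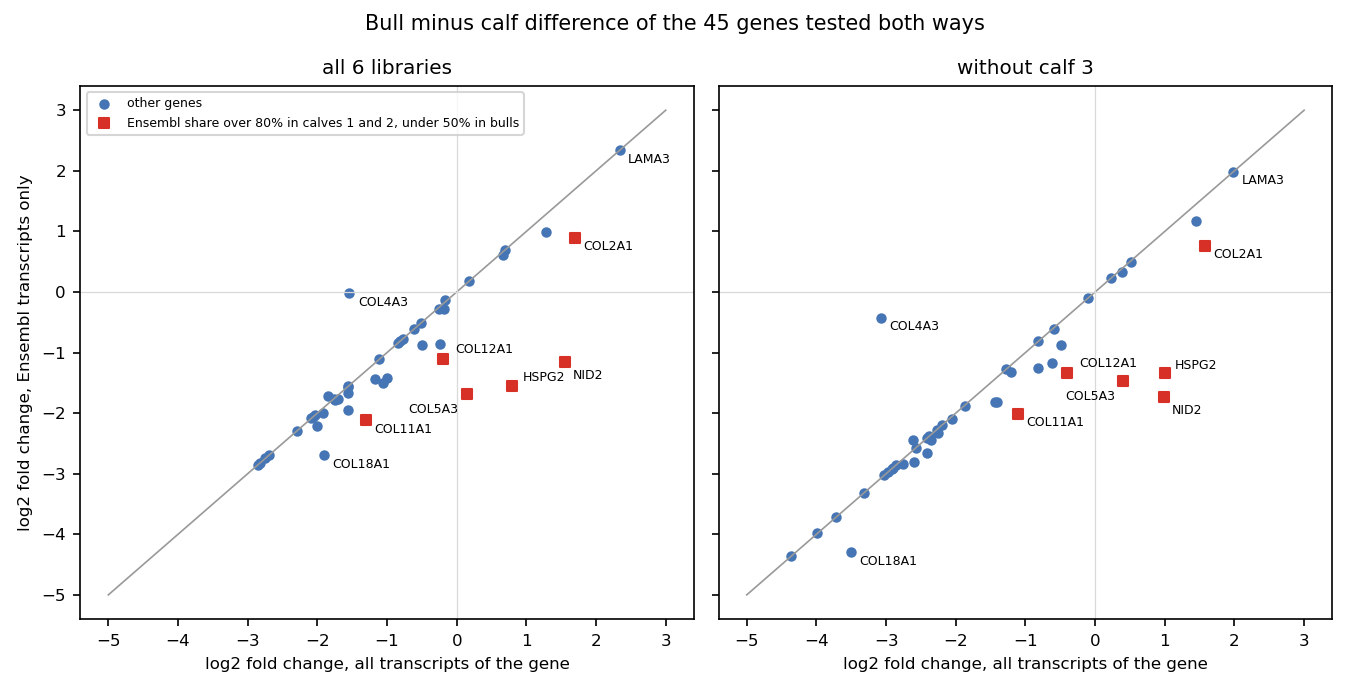
Log2 fold change (bull minus calf) of 45 genes from all transcripts (x axis) and from Ensembl transcripts only (y axis), with all libraries (left) and without calf 3 (right). Most genes lie on the line of equality, while NID2, HSPG2 and COL5A3 (squares) are above 0 on the x axis and below 0 on the y axis, and LAMA3 is at the upper right on both.

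The genes that process, bind or degrade the matrix were read from lists of partner genes. Over the 75 partner genes tested, 7 were called higher and 22 lower with all libraries, beside 35.7% and 9.61% of all genes. Without calf 3 the counts were 8 and 37, beside 37.9% and 13.6%. In the list of collagen maturation and crosslinking, 4 of 18 were lower and 1 higher (9 and 2 without calf 3). PPIB, a prolyl isomerase of the collagen maturation complex, was 724, 552 and 115 FPKM in the calves and 144, 147 and 145 FPKM in the bulls, and SERPINH1, the collagen chaperone HSP47, was 241, 145 and 11.3 FPKM in the calves and 44.4, 49.6 and 48 FPKM in the bulls. Without calf 3 both were called lower (-2.11 and -1.96, adjusted p = 3.52e-05 and 0.000304), whereas P4HB, which also serves general protein folding, was at -0.61, under the fold required. Of the 18 receptors tested, 6 were lower and 2 higher (8 and 2 without calf 3). ITGB1, the beta subunit shared by most matrix integrins, was 185, 155 and 38.8 FPKM in the calves and 46.7, 57.8 and 50.05 FPKM in the bulls, and BCAM, a receptor for laminin alpha-5, was 108, 123 and 8.43 FPKM in the calves and 11.7, 11.7 and 13.4 FPKM in the bulls. The receptors called higher were ITGA5 and ITGB3, named after their values were seen, with ITGB3 at 0.747, 0.728 and 2.69 FPKM in the calves and 7.83, 9.24 and 17.2 FPKM in the bulls.

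In the list of elastic fibre partners 2 of 13 were lower and 1 higher (7 and 1 without calf 3), led by MFAP4 at 77.2, 58.5 and 2.82 FPKM in the calves and 4.36, 4.18 and 5.01 FPKM in the bulls. Of the matricellular proteins 3 of 10 were lower and 1 higher both with and without calf 3. SPARC, a collagen-binding glycoprotein of basement membranes, was 1495, 1198 and 511 FPKM in the calves and 107, 108 and 133 FPKM in the bulls (-3.06 ± 0.44, adjusted p = 0.00166). The metalloproteinases and their inhibitors had 4 of 8 lower and none higher (6 lower without calf 3), and TIMP2 was 2404, 2009 and 135 FPKM in the calves and 639, 332 and 754 FPKM in the bulls. Of the small leucine-rich proteoglycans 3 of 8 were lower and 2 higher (4 and 2 without calf 3). DCN, decorin, a regulator of collagen I fibrils, was 231, 129 and 2.98 FPKM in the calves and 13.8, 19.9 and 26.1 FPKM in the bulls, and OGN, osteoglycin, was 29.2, 21.9 and 4.78 FPKM in the calves and 24.1, 52.6 and 58.5 FPKM in the bulls.

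Marker genes of testis cell types were summed in each library. The 9 Sertoli cell markers summed to 1493 to 1797 FPKM in calf 1 and calf 2, 449 FPKM in calf 3 and 194 to 231 FPKM in the bulls, with INHA and AMH the most abundant in calf 1 and calf 2 and CLDN11 at 429 FPKM making up most of the sum in calf 3, and 7 of 9 were called lower and 2 higher, CLDN11 and INHBB, without calf 3, where with all libraries none was called lower and 1 higher. Stromal fibroblast markers (8) summed to 189.9 to 271 FPKM in calf 1 and calf 2, 77 FPKM in calf 3 and 40.7 to 48.7 FPKM in the bulls. Markers of peritubular myoid and smooth muscle cells (8) summed to 73.9 to 82.7 FPKM in calf 1 and calf 2, 21.8 FPKM in calf 3 and 85.3 to 95.9 FPKM in the bulls, and endothelial markers (8) to 45 to 53.8 FPKM in calf 1 and calf 2, 100.2 FPKM in calf 3 and 18 to 22.3 FPKM in the bulls. Meiotic and haploid germ cell markers (10), with PRM1 the most abundant, summed to 18.4 to 24.5 FPKM in calf 1 and calf 2, 3.73 FPKM in calf 3 and 13449 to 15163 FPKM in the bulls. The summed Sertoli, stromal and endothelial levels were thus lower in every bull than in every calf, and the myoid sum was not. The medians over the markers did not separate the groups. The Sertoli median was 17.7, 25.4 and 0.34 FPKM in the calves and 7.24, 7.63 and 7.3 FPKM in the bulls. The stromal median was 19.6, 16.9 and 1.9 FPKM in the calves and 2.09, 2.19 and 2.18 FPKM in the bulls. The endothelial median was 3.95, 1.91 and 6.73 FPKM in the calves and 1.73, 2.23 and 2.07 FPKM in the bulls. Of 7 stromal markers tested, 3 were called lower and 1 higher (5 and 1 without calf 3). Of 8 endothelial markers, 2 were called lower and none higher (1 lower without calf 3), so most were not called. Of 8 myoid markers, none was called lower and 3 higher (2 and 3 without calf 3). All 10 germ cell markers were called higher. Over all genes 9.61% were called lower and 35.7% higher, and 13.6% and 37.9% without calf 3. The part of these marker differences in the matrix values was not tested.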

How the data were processed

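Total RNA of testis from 3 calves and 3 bulls was depleted of ribosomal RNA and sequenced in strand-specific libraries. The authors removed low-quality and ribosomal reads (Bowtie2), mapped the rest with TopHat2 and assembled transcripts with StringTie 1.3.1, per the study's methods. The methods name Cuffdiff and Ballgown for circular RNAs. The tool that gave the FPKM of these tables is not given in the sources used here. The authors deposited tables of genes and transcripts in FPKM per library, with no counts, so the depth behind a value is unknown and no counting interval was computed. All per-sample columns were used (0 left out). FPKM were not rescaled to a common total, and 14325 to 18982 genes reached 1 FPKM per library. Positions are those of the tables, on an ARS-UCD assembly by their scaffold names, although the methods name UMD3.1.1.

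The genes were found by symbol, and the groups follow the sample labels. Features reaching 1 FPKM in 3 or more of the 6 libraries were kept, 1 was added, log2 was taken, and bull was compared with calf in R 4.3.3 with limma 3.58.1 (trend, two-sided, adjusted over all features by Benjamini-Hochberg). A call required adjusted p under 0.05 with an absolute log2 difference of 1 or more. Plots come from matplotlib 3.10.9 under Python 3.11.15. The code was tested on simulated data. Genes with values for each library were the 3 with the highest mean FPKM in each group, the 6 called genes with the largest increase and decrease, genes whose call changed without calf 3, and up to 3 partner genes per list. Other genes were chosen after their values were seen. The genes and lists were chosen with earlier results of these data known. Alternatives varied the pseudocount, filter, scaling, weights, variance trend, replicate block, libraries left out and transcripts summed, the last chosen after seeing the data. The sources give no batch or date per library. The values of 1 gene below the filter are not reported here.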

Additional observations from a re-analysis of the deposited data

How the results depend on the processing

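Of the 52 genes tested, 17 were called with all libraries, 11 lower and 6 higher, where 1741 and 6474 of all 18115 genes were. Array weights in limma gave 38, 31 lower and 7 higher (2470 and 6867 of all genes). Quantile normalization without calf 3 gave 39, 38 lower and 1 higher (5275 and 4062 of all genes). Ensembl transcripts without calf 3 gave 36, 34 lower and 2 higher (17.4% and 27.8% of all genes). Leaving out AS and OT transcripts and calf 3 gave 39, 33 lower and 6 higher (14.2% and 37% of all genes). Leaving out 1 library gave from 11 genes (without bull 3, 6 lower and 5 higher) to 36 (without calf 3, 30 lower and 6 higher). Over all genes the lower and higher calls were 1299 and 6034 without bull 3, and 2466 and 6859 without calf 3. Of the 70 transcripts tested, 27 were called with all libraries, where 34.8% of all transcripts were called higher and 9.37% lower. Leaving out 1 library gave 20 to 55, and quantile normalization without calf 3 gave 53. Without calf 3 36.1% of all transcripts were called higher and 13.1% lower, and shares under the other settings are not given here. For partner genes the counts were 29 with all libraries and 45 with array weights. They were 20 to 45 with 1 library left out and 54 under quantile normalization without calf 3. The counts over all genes above apply beside these. With the replicate number as a block (replicate block) the counts were 16 genes, 26 transcripts and 29 partner genes. The 16 genes were 9 lower and 7 higher, where 1691 and 6437 of all 18115 genes were called. Same-numbered calves and bulls are separate animals, so the numbers do not pair the samples. The correlation of their deviations from the group means was 0.0277, 0.0246 and 0.0341 for numbers 1, 2 and 3. These values were small, and calf 1 with bull 2 reached 0.0221, although every sample correlated best with its own number. Under the block COL4A1 and LAMC3 had adjusted p of 0.0535 and 0.0502 and NID2 0.0476 by limma. Log2 fold changes that changed sign, of genes not called with all libraries, were as follows. With a pseudocount of 0.1 they were 0.48 for COL28A1. Under quantile normalization they were -0.53 for COL4A3BP, -0.33 for COL8A2 and -0.37 for COL5A3. After rescaling to a common total they were 0.17 for COL28A1 and 0.13 for COL9A1. With array weights they were -0.056 for FBN2, 0.47 for COL9A1 and 0.47 for LAMA5. Under quantile normalization without calf 3 they were -0.65 for FBN2, -0.52 for COL4A3BP, -0.45 for COL8A2 and -0.12 for COL5A3. On Ensembl transcripts they were -1.55 for HSPG2, -1.16 for NID2 and -1.69 for COL5A3. On Ensembl transcripts without calf 3 they were -0.11 for FBN2, -1.34 for HSPG2, -1.74 for NID2, -1.47 for COL5A3 and 0.49 for LAMA5. On Ensembl transcripts under quantile normalization they were -1.98 for HSPG2, -1.54 for NID2, -0.47 for COL4A3BP and -2.08 for COL5A3. Without AS and OT transcripts they were -1.07 for HSPG2, -0.92 for NID2 and -0.46 for COL5A3. With 1 library left out, or calf 3 together with the AS and OT transcripts, the range was -2.57 to 0.19 for COL6A1, -0.59 to 0.15 for ELN, -0.72 to 0.16 for COL14A1, -2.38 to 0.46 for LAMB1, -1.31 to 0.51 for COL28A1, -0.44 to 0.10 for COL13A1, -0.20 to 0.41 for COL5A3, -0.11 to 1.15 for FBN2, -0.61 to 0.57 for COL9A1, -0.57 to 0.52 for LAMA5, -0.47 to 0.083 for COL12A1, -0.87 to 0.99996 for HSPG2 and -1.50 to 2.10 for NID2. The cause of these changes was not tested. The alternatives on transcripts and the pairings of another setting with leaving out calf 3 were chosen after seeing the data.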
